A study of Mus musculus with 4 samples.

Results

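The genes described here, 10 of the 30406 listed in all 4 libraries, carry and answer bone morphogenetic protein (BMP) signals in the embryonic mammary gland of the mouse. They are the ligands Bmp2, Bmp4 and Bmp7, the type I receptor Bmpr1a, the secreted antagonist Sostdc1, and the transcriptional regulators Id1, Id2, Id3, Msx1 and Msx2, which are known to respond to BMP in many tissues. The genes were chosen by name, and each symbol matched 1 gene in every library.

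The study sequenced single cells from mammary rudiments of female wild-type C57B6 mice (C57 B6/N in the study's methods) at 3 embryonic stages (E13.5, E14.5 and E15.5, in days of gestation) and on the day of birth (P0), with 1 library per stage. Tissues of several embryos were pooled, EpCAM-positive and EpCAM-negative cells were sorted, and cells carrying the blood, endothelial or erythroid markers CD45, CD31 or Ter119 were left out, and the libraries hold no treated or mutant group. The question here is in which tissue and at which stage the ligands, receptor, antagonist and targets were detected, and whether ligand and target levels went together. Of 5896 barcodes, 1630 had at least 5000 unique molecular identifiers (UMIs, which count RNA molecules) with at most 6% of them mitochondrial. A cell was taken as epithelial when its summed UMIs of Epcam, Krt8, Krt18, Krt5 and Krt14 exceeded those of the collagens Col1a1, Col1a2 and Col3a1, and as mesenchymal in the opposite case.

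BMP ligands are secreted dimers that bring type I and type II receptors together, and the activated receptors phosphorylate Smad1, Smad5 and Smad9, which enter the nucleus with Smad4. Id proteins lack a DNA-binding domain and hold basic helix-loop-helix factors inactive, while Msx1 and Msx2 are homeodomain proteins. In the mammary bud, exchange of signals between epithelium and mesenchyme is known to include BMP4 from the mesenchyme and BMPR1A in both tissues, and Sostdc1 is known to limit BMP and Wnt signals.

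The stretch around the annotated start of target genes is shown because the Id and Msx levels carry most of the pattern described here. The RefSeq table of mouse promoters (assembly GRCm38.p6, 250 bases before to 50 bases after each start) held 6 of the 10 genes, and those of Id2, Id3, Msx1 and Msx2 follow, 5′ to 3′ on the gene's own strand. Capitals mark GGCGCC and GGAGCC, GC-rich motifs that BMP Smads are known to bind, searched on both strands, so that GGCTCC is GGAGCC read on the other strand.
Id2: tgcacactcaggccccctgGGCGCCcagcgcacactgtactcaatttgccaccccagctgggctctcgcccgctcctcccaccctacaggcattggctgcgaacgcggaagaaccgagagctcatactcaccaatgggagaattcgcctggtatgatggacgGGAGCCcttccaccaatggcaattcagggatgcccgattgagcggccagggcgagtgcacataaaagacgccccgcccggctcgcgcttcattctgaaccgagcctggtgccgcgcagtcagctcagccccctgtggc
Id3: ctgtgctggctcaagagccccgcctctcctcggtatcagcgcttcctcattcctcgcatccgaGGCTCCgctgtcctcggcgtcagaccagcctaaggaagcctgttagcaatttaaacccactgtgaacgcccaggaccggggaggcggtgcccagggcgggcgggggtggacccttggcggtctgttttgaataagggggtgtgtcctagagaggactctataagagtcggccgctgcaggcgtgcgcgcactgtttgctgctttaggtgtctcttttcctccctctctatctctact
Msx1: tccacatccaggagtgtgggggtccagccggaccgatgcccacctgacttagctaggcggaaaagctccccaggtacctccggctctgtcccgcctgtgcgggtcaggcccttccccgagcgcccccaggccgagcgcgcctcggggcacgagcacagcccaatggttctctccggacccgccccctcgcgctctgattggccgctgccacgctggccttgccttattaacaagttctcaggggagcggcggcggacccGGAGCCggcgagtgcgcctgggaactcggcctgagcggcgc
Msx2: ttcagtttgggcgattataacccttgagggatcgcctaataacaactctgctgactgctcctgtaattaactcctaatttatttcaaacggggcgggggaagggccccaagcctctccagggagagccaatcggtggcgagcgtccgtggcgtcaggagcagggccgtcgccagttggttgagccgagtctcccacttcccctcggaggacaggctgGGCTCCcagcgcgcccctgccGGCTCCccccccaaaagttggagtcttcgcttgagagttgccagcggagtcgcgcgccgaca
The windows lie at chr12:25096043-25096342 (minus strand, Id2), chr4:136143572-136143871 (plus strand, Id3), chr5:37824536-37824835 (minus strand, Msx1) and chr13:53472731-53473030 (minus strand, Msx2). Each spans the RefSeq start of transcription, with the last 50 bases after it. The gene positions given below, from GENCODE, place the Id2, Id3 and Msx2 windows within the gene. The Msx1 window reaches beyond its gene on the upstream side. Id2 held both motifs, Id3 and Msx1 held 1 GGAGCC each, and Msx2 held 2. Of the 6 members in the table, 2 held GGCGCC and 5 held GGAGCC. Over all 32851 promoters of the table, 11.9% held GGCGCC, 30.8% held GGAGCC and 37.1% held either. A match describes letters in the window and no binding was measured.

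The libraries differed in depth and size. In stage order the epithelial cells numbered 98, 45, 532 and 230 and the mesenchymal cells 135, 31, 283 and 273, while 3 cells had equal sums. Median UMIs per cell ranged from 16438 to 26725 in the embryonic groups and were 9973 and 8743 in the P0 groups, where digestion also differed and red cells were lysed. The 4 epithelial genes checked that are not in the rule (Cdh1, Cldn4, Cldn7, Esrp1) summed to 892 to 2694 CPM (a gene's UMIs scaled to a total of 1000000 per group) in epithelium and 3.58 to 80.9 CPM in mesenchyme. The 4 mesenchymal genes (Pdgfra, Pdgfrb, Twist1, Col6a1) summed to 1136 to 1677 CPM in mesenchyme and 4.41 to 15 CPM in epithelium. The 13 markers of endothelial, blood, pericyte, muscle, pigment and glial cells summed to 15.2 to 21.4 CPM in epithelium, with 4 to 9 detected. They summed to 25.8 to 129 CPM in mesenchyme, with 6 to 12 detected. The endothelial marker Cdh5 was at 0 in all 4 epithelial groups and Ptprc (CD45) at 0 in all 3 embryonic mesenchymal groups. Others of the list were present, such as Pecam1 in 13.3% of E14.5 epithelial cells and 22.6% of E14.5 mesenchymal cells. The highest level of any of the 13 in a group was that of Lyz2 in P0 mesenchyme, at 77.0 CPM. The libraries shared 2 barcodes, none of them among the cells kept.

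Levels are UMIs of a gene summed over the cells of a group, in CPM of that group. Intervals are exact 95% intervals and cover counting error only. Since each stage had 1 library and cells are not replicates, no test between stages could be made, and stage cannot be told apart from library. The tissues could be paired within the 4 libraries, each of another stage, where a two-sided exact sign-flip permutation test of the mean log2(CPM + 10) difference cannot go below p = 0.125. That value was reached by Bmp4 (-1.20 ± 0.82, SD, n = 4) and Bmpr1a (-0.56 ± 0.13, SD, n = 4), both higher in mesenchyme in 4 of 4 libraries, and the exact p was 0.250 to 0.875 for the other 8 members. A level summed over a group cannot separate fewer expressing cells from less RNA per cell. A pair of levels is called apart where the interval of their ratio lies on 1 side of 1.

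Bmp2 (chr2:133552159-133562885, plus strand) measured 28.9, 178, 40.4 and 0.765 CPM in epithelium, in order of stage from E13.5 to P0 as for every member. In mesenchyme the values were 55.6, 72.8, 55.6 and 62.6 CPM. The mesenchymal levels kept to a narrow range, and no pair of stages was apart in mesenchyme. The epithelial level was 6.17-fold (4.61 to 8.36) higher at E14.5 than at E13.5, and P0 epithelium held 2 UMIs, against 157 in P0 mesenchyme (81.8-fold, 22.3 to 682). E14.5 was thus the 1 stage at which the pooled epithelium was above the mesenchyme (2.45-fold, 1.84 to 3.31). Of its 45 epithelial cells, 66.7% had a Bmp2 UMI (51.0 to 80.0), against 41.9% of the 31 mesenchymal cells (24.5 to 60.9). The pooled E13.5 epithelium had 124 CPM in the mammary-like cells described below, and 1.72 and 11.0 CPM in its periderm-like and unnamed cells. Within mammary-like cells, Bmp2 was 2.12-fold (1.54 to 2.98) higher at E14.5 than at E13.5. The E15.5 epithelium also pools clusters, with 79.9 CPM in the cells led by Ndnf and 8.84 CPM in the luminal-like cells.

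Bmp4 (chr14:46383520-46390669, minus strand) measured 14.2, 18.1, 15.1 and 0 CPM in epithelium at the 4 stages in order. The mesenchymal levels were 73.5, 19.1, 46.3 and 24.3 CPM. Bmp4 was the more mesenchymal of the ligands at E13.5 (5.17-fold, 3.48 to 7.95) and at E15.5 (3.06-fold, 2.57 to 3.65), and the tissues were not apart at E14.5, with 23 UMIs in epithelium and 16 in mesenchyme (1.06-fold, 0.522 to 2.09). No UMI was found in 230 epithelial cells at P0, which allows up to 1.30% of cells with a UMI (3 counts of the total) and sets no limit on cells that express the gene. Mesenchyme was at least 16.7-fold higher by the exact lower limit, and 21.2-fold higher with 3 counts in place of the 0.

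Bmp7 (chr2:172868012-172940321, minus strand) had its higher level in epithelium at E13.5 and E14.5 and in mesenchyme at E15.5 and P0. Its epithelial level was 56.8, 44.8, 16.0 and 4.59 CPM, and its mesenchymal level 15, 22.7, 37.6 and 31.1 CPM. The epithelium was 3.91-fold higher at E13.5 (2.66 to 5.88) and 1.97-fold higher at E14.5 (1.16 to 3.51). The E13.5 epithelium pools several clusters, and 13 of its 116 Bmp7 UMIs were in the mammary-like cells described below. The mesenchyme was 2.36-fold higher at E15.5 (1.97 to 2.82) and 6.78-fold higher at P0 (3.67 to 13.7). With 7 called doublets left out at E14.5, the mesenchymal level there was 10.9 CPM.

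The receptor Bmpr1a (chr14:34410734-34503341, minus strand) was the most even member over the 8 groups of stage and tissue. It measured 80.3, 103, 88.6 and 49.7 CPM in epithelium and 115, 155, 155 and 72.6 CPM in mesenchyme. Mesenchyme was above epithelium at every stage, by 1.44-fold (1.18 to 1.75), 1.51-fold (1.17 to 1.94), 1.75-fold (1.61 to 1.90) and 1.46-fold (1.16 to 1.84), never past 2-fold. Its lowest level was in P0 epithelium, 1.46-fold (1.16 to 1.84) under the next. In the embryonic groups 74.5% to 93.6% of cells had a Bmpr1a UMI, and at the shallower P0 40.0% of epithelial and 44.0% of mesenchymal cells did. After thinning each cell to 5000 UMIs these shares were 33.3% to 50.2% in the embryonic groups and 25.7% and 27.8% at P0.

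The antagonist Sostdc1 (chr12:36314139-36318452, plus strand) was high early in both tissues. The epithelial level was 132, 138, 18.5 and 11.1 CPM. The mesenchymal level was 85.5, 41.8, 29.8 and 0.399 CPM. In epithelium E14.5 stood 7.48-fold (6.15 to 9.09) above E15.5, and E13.5 and E14.5 were not apart. The tissue with more Sostdc1 was the epithelium at E13.5 (1.54-fold, 1.28 to 1.86), E14.5 (3.31-fold, 2.29 to 4.90) and P0 (29 against 1 UMI, 27.8-fold, 4.61 to 1136), and the mesenchyme at E15.5 (1.61-fold, 1.34 to 1.94). The E15.5 order did not hold after thinning to 5000 UMIs per cell, with 22.2 CPM in epithelium and 21.9 in mesenchyme.

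Among the targets, Id1 (chr2:152736251-152737410, plus strand) was lower at P0 than at E13.5 in both tissues. It measured 255, 182, 63.7 and 16.4 CPM in epithelium and 124, 150, 59.2 and 30.7 CPM in mesenchyme. The level was 4.01-fold (3.59 to 4.47) higher at E13.5 than at E15.5 and 3.87-fold (2.85 to 5.39) higher at E15.5 than at P0 in epithelium, and 2.10-fold (1.80 to 2.44) and 1.93-fold (1.51 to 2.49) in mesenchyme. The tissues were not apart at E14.5 and E15.5, with the epithelium 2.06-fold higher at E13.5 (1.78 to 2.38) and the mesenchyme 1.87-fold higher at P0 (1.27 to 2.78).

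Id2 (chr12:25093799-25097140, minus strand), whose promoter held both motifs above, measured 207, 247, 94.0 and 14.9 CPM in epithelium and 237, 163, 144 and 75.8 CPM in mesenchyme. Its level was likewise highest in the early groups and lowest in P0 epithelium, where the mesenchyme was 5.08-fold (3.58 to 7.37) higher. The epithelium was higher at E14.5 (1.51-fold, 1.23 to 1.86). At E13.5 the mesenchyme was 1.15-fold higher (1.01 to 1.30) than the pooled epithelium. This difference turned to 255 CPM in epithelium against 244 in mesenchyme after thinning. Of the clusters pooled there, the mammary-like cells described below had 773 CPM, the periderm-like cells 169 and the unnamed cells 34.9. Within mammary-like cells, Id2 was 2.23-fold (1.89 to 2.64) higher at E13.5 than at E14.5.

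Id3 (chr4:136143497-136145755, plus strand) went a different way from Id1 and Id2 in the pooled tissues. Its epithelial level was 572, 573 and 505 CPM in the embryo and 122 at P0. The E13.5 epithelium pools several clusters. In the mammary-like cells described below, Id3 was 3.48-fold (3.15 to 3.85) higher at E13.5 than at E14.5, as were Id1 (2.99-fold) and Id2 (2.23-fold). The mesenchymal level of Id3 was 284, 282 and 202 CPM in the embryo and 598 at P0. The epithelium was therefore higher at the 3 embryonic stages, by 2.01-fold (1.83 to 2.22), 2.03-fold (1.75 to 2.36) and 2.50-fold (2.37 to 2.65), and the mesenchyme 4.90-fold higher at P0 (4.34 to 5.55). Between E15.5 and P0 the mesenchymal level was 2.96-fold higher at P0 (2.76 to 3.19) and the epithelial level 4.14-fold higher at E15.5 (3.70 to 4.64). At P0 78.0% of mesenchymal cells (72.6 to 82.8) and 46.5% of epithelial cells (39.9 to 53.2) had an Id3 UMI, at median depths of 8743 and 9973 UMIs. A list of 7 immediate early genes (Fos, Jun and relatives, which respond to dissociation) summed to 5479 CPM in P0 mesenchyme, 3013 in E15.5 and 5193 in E14.5 mesenchyme, and their part in the Id3 level was not tested.

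Msx1 (chr5:37820485-37824583, minus strand) was an early epithelial gene. The epithelial level was 49.5, 15.7, 4.06 and 0.382 CPM, and the mesenchymal level 2.91, 2.39, 0.275 and 3.19 CPM, from 8 or fewer UMIs per group. The epithelium was higher by 17.0-fold at E13.5 (7.97 to 43.4), 6.58-fold at E14.5 (1.60 to 58.1) and 14.7-fold at E15.5 (3.90 to 125). At E15.5 7.52% of epithelial cells had a UMI (5.43 to 10.1) against 0.707% of mesenchymal cells (0.0857 to 2.53), at near-equal median depths of 24695 and 24376 UMIs. At P0 there was 1 UMI in epithelium and 8 in mesenchyme.

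Msx2 (chr13:53466884-53473074, minus strand) measured 55.8, 18.1, 8.19 and 6.88 CPM in epithelium and 4.15, 7.16, 13.9 and 0 CPM in mesenchyme. It shared the high level in E13.5 epithelium, 13.4-fold above mesenchyme (7.05 to 28.8), but not the later course of Msx1. At E14.5 the tissues were not apart (2.52-fold, 0.999 to 7.58). At E15.5 the mesenchyme was 1.70-fold higher (1.29 to 2.24). At P0 the epithelium held 18 UMIs and the mesenchyme 0. The epithelium was at least 4.22-fold higher by the exact lower limit, and 5.76-fold higher with 3 counts in place of the 0.

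**Figure D1:**
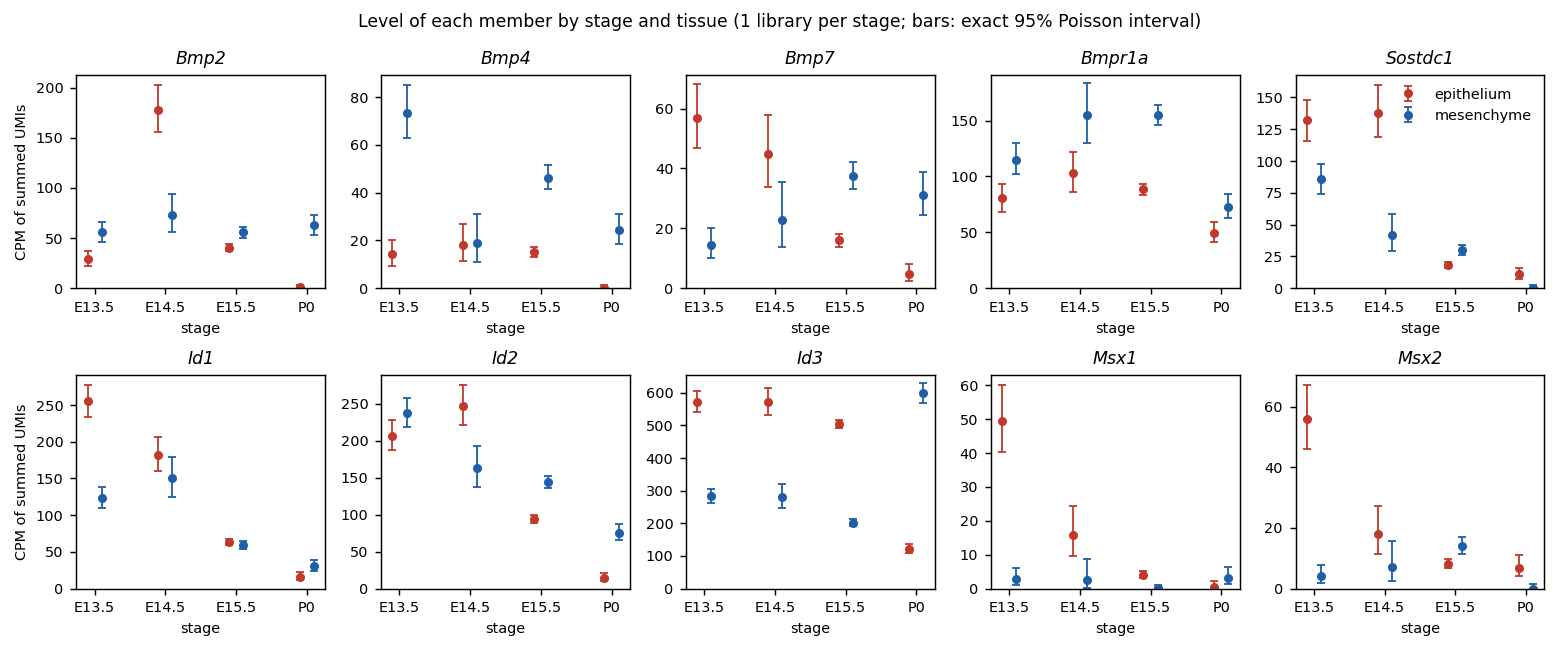
Level of each of the 10 genes in CPM of summed UMIs (y axis, from 0) at each stage (x axis) in epithelium (red) and mesenchyme (blue), with bars for the exact 95% Poisson interval and 1 library per stage. For Id3 the tissues change places between E15.5 (505 CPM in epithelium, 202 in mesenchyme) and P0 (122 and 598), and Sostdc1, Msx1 and Msx2 change places there at lower levels.

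The order of the 8 levels of a gene shows where neighbours could be separated. For Bmp2, E14.5 epithelium stood apart from the second level, the next 4 levels (E14.5, P0, E15.5 and E13.5 mesenchyme) were not apart from one to the next, and P0 epithelium stood apart at the bottom. For Bmp7 no neighbours were apart from E13.5 epithelium down to E13.5 mesenchyme, and only P0 epithelium lay under them. Id1 ran from E13.5 epithelium, apart from the rest, through E14.5 epithelium, E14.5 mesenchyme and E13.5 mesenchyme, not apart in sequence, to P0 epithelium. For Id3 the top pair, P0 mesenchyme and E14.5 epithelium, was not apart (1.04-fold, 0.955 to 1.14), nor were E14.5 and E13.5 epithelium. For Msx1 the first 3 levels were E13.5, E14.5 and E15.5 epithelium and the remaining neighbours were not apart. P0 epithelium was the lowest of the 8 levels for Bmp2, Bmp4, Bmp7, Bmpr1a, Id1, Id2 and Id3.

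To read the members against all other genes, folds were taken on CPM plus 10 and only genes with a mean level of at least 10 CPM in the pair of groups were counted. At E13.5 all 10 members passed that level, with 3 at least 2-fold higher in epithelium (Bmp7, Msx1, Msx2), where 6.40% of 8479 genes were, and 1 in mesenchyme (Bmp4), where 11.1% of genes were. Id1 and Id3 lay just under 2-fold, at log2 differences of 0.98 and 0.99. At E14.5 9 members passed, with 2 higher in epithelium (Bmp2, Sostdc1; 8.79% of genes) and 0 in mesenchyme (13% of genes), and Msx1 fell under the level. At E15.5 9 passed, with 1 higher in epithelium (Id3; 9.85% of genes) and 1 in mesenchyme (Bmp4; 10.8% of genes), and Msx1 again fell under the level. At P0 7 passed, with 0 higher in epithelium (15.0% of genes) and 5 in mesenchyme (Bmp2, Bmp4, Bmp7, Id2, Id3; 13.3% of genes), while Sostdc1, Msx1 and Msx2 fell under it. The median log2 difference of the members that passed was 0.78 at E13.5 (10 members) and -1.78 at P0 (7 members). That of all genes was -0.09 and 0.24. These medians are of different sets, since Sostdc1, Msx1 and Msx2, at 1.02, -0.35 and 0.76 at P0, are counted only at E13.5.

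**Figure D2:**
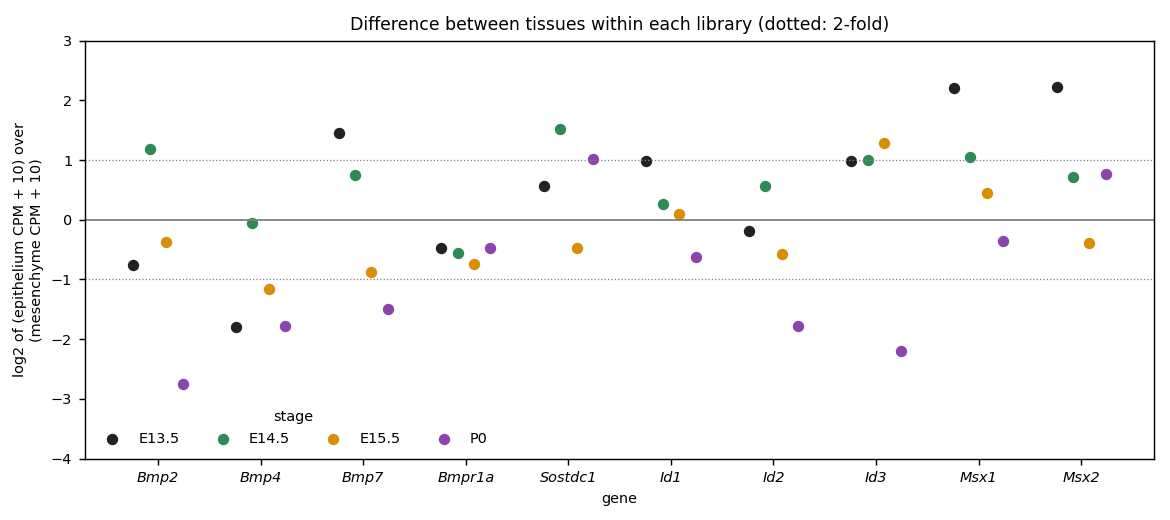
Difference between epithelium and mesenchyme on the log2(CPM + 10) scale (y axis; above 0, higher in epithelium; dotted lines, 2-fold) for each gene (x axis) at the 4 stages (colours). Bmpr1a keeps the same sign at all 4 stages, whereas Bmp7 and Id3 run from positive at E13.5 (1.45 and 0.99) to negative at P0 (-1.49 and -2.20).

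Between stages, the epithelial levels that differed by 2-fold or more on this scale were lower at the later stage, other than Bmp2, which was higher at E14.5 than at E13.5, while Bmpr1a stayed under 2-fold for every pair. All 10 passed the level in the pair E13.5 and E15.5, and 6 were at least 2-fold higher at E13.5 (Bmp7, Sostdc1, Id1, Id2, Msx1, Msx2), where 5.72% of genes were, against 0 at E15.5, where 7.54% of genes were. From E15.5 to P0, 4 of the 7 that passed were at least 2-fold higher at E15.5 (Bmp2, Id1, Id2, Id3; 8.26% of genes) and 0 at P0 (8.33% of genes). The mesenchymal levels changed less. Of 8 members that passed, 1 was at least 2-fold higher at E13.5 than at E15.5 (Sostdc1; 3.61% of genes) and 0 the other way (3.38% of genes). From E15.5 to P0, Id3 was at least 2-fold higher at P0 (10.7% of genes) and Sostdc1 at E15.5 (14.9% of genes), with 8 members passing.

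Clustering within each stage and tissue, with the members, the pathway list and the checked markers left out of the genes used, showed which cells held the UMIs. E13.5 epithelium formed 3 clusters, namely 22 mammary-like cells (led by Pthlh, Msx1, Ndnf, Id3 and Dusp2), 32 periderm-like cells (Hopx, Gabrp, Krt17, Slc2a3, Cldn23) and 44 cells left unnamed (Fbln2, Dcn, Ptn, Col17a1, Cstdc5). The mammary-like cells carry markers of the bud epithelium (Ndnf, Tbx3, Pthlh and others), and periderm is the outer layer of fetal skin. The E13.5 epithelial levels above pool all 3 clusters.

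The mammary-like cells held all 101 Msx1 UMIs of E13.5 epithelium, 272 CPM (222 to 330) against 0 in the other clusters. They were at least 78.9-fold above the unnamed cells and 42.0-fold above the periderm-like cells by the exact lower limits. With 3 counts in place of the 0, the folds were 98.8 and 52.6. The mammary-like cells also held 78.0% of the Bmp2 UMIs, 77.7% of those of Sostdc1 and 83.6% of those of Id3, from 22.4% of the cells. Bmpr1a was even, at 86.2, 70.7 and 83.5 CPM in the mammary-like, periderm-like and unnamed cells.

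The Id and Msx genes separated in the other clusters. Id1 measured 735 CPM (651 to 828) in mammary-like cells, 405 (355 to 460) in periderm-like and 11.9 (6.35 to 20.4) in unnamed cells. Id3 measured 2628 CPM (2466 to 2798) in mammary-like and 168 CPM (144 to 194) in unnamed cells, and had 9 UMIs in periderm-like cells (7.09 to 29.4 CPM). The periderm-like cells were thus 34.0-fold (19.5 to 64.7) above the unnamed cells in Id1 and 10.8-fold (5.58 to 24.1) under them in Id3. Msx2, unlike Msx1, was not apart between periderm-like and mammary-like cells, at 91.3 and 88.9 CPM (0.973-fold in mammary-like, 0.610 to 1.53). Bmp7 had 35.0 CPM in mammary-like, 60.3 in periderm-like and 62.4 in unnamed cells, not apart for any pair, while Bmp4 was 3.13-fold (1.26 to 8.43) higher in mammary-like than in periderm-like cells. Under log-normalization before clustering, every member's ratio between mammary-like and periderm-like cells stayed within its interval.

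**Figure D3:**
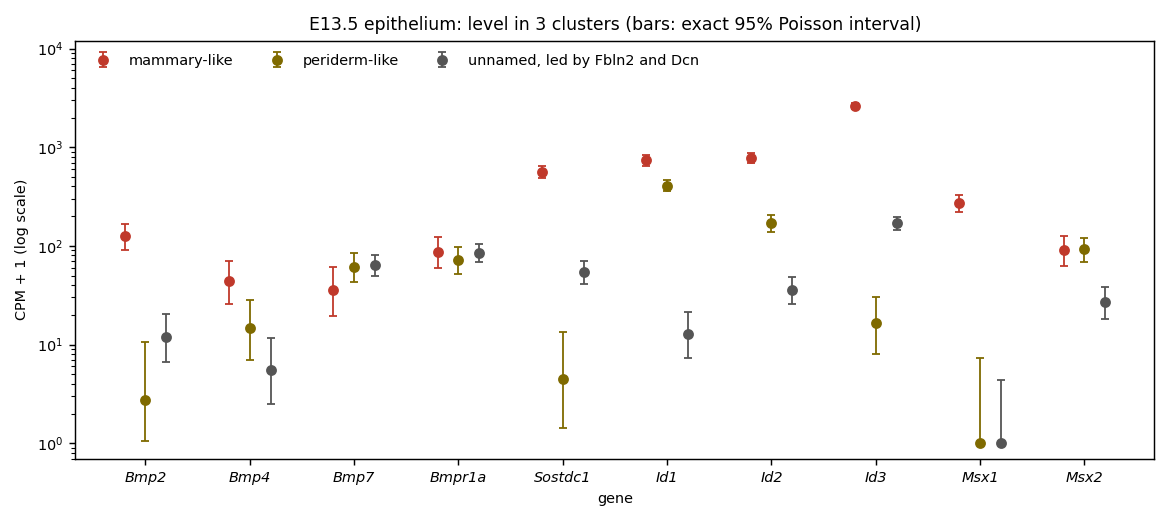
Level of each gene (x axis) in CPM plus 1 on a log scale (y axis) in the 3 clusters of E13.5 epithelium, with bars for the exact 95% Poisson interval. Id1 and Id3 are both highest in the mammary-like cells (735 and 2628 CPM) but take opposite orders in the periderm-like and unnamed cells, and Bmpr1a measures 70.7 to 86.2 CPM in all 3.

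At E14.5 the 32 mammary-like cells held 221 of 227 epithelial Bmp2 UMIs (263 CPM), 18.9-fold (8.55 to 52.1) above the other 13 cells, which Krt1, Ube2c and Top2a led. Id1 (246 CPM), Id2 (346) and Id3 (755) were 4.25-fold (2.80 to 6.72), 6.23-fold (4.10 to 9.88) and 3.47-fold (2.79 to 4.36) above those cells, and Sostdc1 was not apart from them at 137 and 141 CPM. Bmpr1a was 2.69-fold (1.68 to 4.52) higher in the mammary-like cells, at 131 and 48.6 CPM. The 45 cells formed 1 cluster at a resolution of 0.4 and with log-normalization. Set beside the mammary-like cells of E13.5, Bmp2 was 2.12-fold higher at E14.5 (1.54 to 2.98), while the targets were all higher at E13.5, Msx1 by 12.7-fold (7.65 to 22.3), Msx2 by 4.40-fold (2.38 to 8.42), Id3 by 3.48-fold (3.15 to 3.85), Id1 by 2.99-fold (2.48 to 3.60) and Id2 by 2.23-fold (1.89 to 2.64). Sostdc1 was 4.12-fold higher at E13.5 (3.26 to 5.21). Bmp7 was not apart between these clusters, at 32.1 and 35.0 CPM. Bmp4 went with the targets, 2.13-fold higher at E13.5 (1.01 to 4.49), from 16 UMIs at E13.5 and 17 at E14.5.

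E15.5 epithelium formed 6 clusters. Id1 was concentrated in 110 luminal-like cells (led by Krt4, Ly6d and Id1 itself), at 202 CPM (186 to 218) against 8.21 to 29.8 CPM in the other 5, and those cells held 70.2% of its UMIs. The 85 cells led by Ndnf, Tbx3, Irs4, Pthlh and Gas1, left unnamed by the rule, had the opposite profile, with Bmp2 at 79.9 CPM (68.0 to 93.3) against 8.84 (5.87 to 12.8) in the luminal-like cells, Sostdc1 at 47.2 CPM, 21.3-fold (9.96 to 54.5) above them, and Id1 at 29.8 CPM, 6.77-fold (5.19 to 8.98) under them. Id3 differed little between the same clusters (705 and 533 CPM, 1.32-fold, 1.23 to 1.42), and so did Id2 (155 and 122 CPM, 1.27-fold, 1.09 to 1.48). With log-normalization the cells that correspond to the luminal-like cluster were led by Sprr1b, Krt1 and Krt4 and stayed unnamed. In the 16 epidermis-like cells Id3 was 88.2 CPM, Bmp2 had 0 UMIs, and Bmp4 and Bmp7 had 1 UMI each.

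In the mesenchyme the ligands divided between clusters. At E13.5 the 38 sub-epithelial-like cells, the mesenchyme next to the bud by their fixed markers, had Bmp4 at 117 CPM and Sostdc1 at 206 CPM. These were 2.49-fold (1.73 to 3.60) and 6.04-fold (4.23 to 8.77) above the 73 unnamed cells led by Actc1 and Ebf2. Id1 (1.46-fold, 1.08 to 1.95), Id2 (1.54-fold, 1.27 to 1.87) and Id3 (1.29-fold, 1.07 to 1.55) were also above them. Bmp7 was 3.39-fold (1.02 to 17.7) higher in the unnamed cells, from 22 UMIs against 3, and Bmp2, Msx1 and Msx2 were not apart. At E15.5 the 86 sub-epithelial-like cells were 5.79-fold (3.16 to 11.6) above the 74 dermal-like cells in Bmp4 (44.0 and 7.60 CPM) and 6.14-fold (3.58 to 11.3) above them in Bmp7 (58.3 and 9.50 CPM). Bmp2 (91.8 against 61.2 CPM) and Sostdc1 took the reverse order, 2.49-fold (1.69 to 3.71) higher in dermal-like cells for Sostdc1. Of the targets, Msx2 was 3.67-fold (1.60 to 9.80) and Id1 1.74-fold (1.25 to 2.46) higher in the sub-epithelial-like cells, Id2 was 1.41-fold (1.19 to 1.66) higher in the dermal-like cells, and Id3 was not apart (182 and 170 CPM). The 66 proliferative-like cells had the highest Bmp4 of E15.5 mesenchyme, at 87.0 CPM. The sub-epithelial name was lost at both stages at a cluster resolution of 0.4.

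At P0, 74 Pi16 fibroblast-like cells, named for a marker of a stromal fibroblast type found in many tissues, held most ligand UMIs of the mesenchyme, namely 61.8% for Bmp2, 73.8% for Bmp4 and 88.5% for Bmp7. Their levels were 121, 55.9 and 85.7 CPM. The 54 Col15a1 fibroblast-like cells had 27.3, 2.10 and 10.5 CPM, so that the Pi16 fibroblast-like cells, which had Bmp7 among their 5 leading genes, were 4.41-fold (2.46 to 8.58) higher in Bmp2, 26.6-fold (4.54 to 1074) in Bmp4, from 45 UMIs against 1, and 8.16-fold (3.33 to 25.9) in Bmp7. Of the targets, Id1 was 5.54-fold (2.76 to 12.1) and Id3 1.78-fold (1.53 to 2.06) higher in the Col15a1 fibroblast-like cells, Id2 was not apart (57.2 and 84.1 CPM), Msx1 had 3 and 2 UMIs and Msx2 had 0 in both, and at a cluster resolution of 0.4, where hemoglobin genes led the Col15a1 fibroblast-like cells, the Id3 levels were 474 CPM in the Pi16 and 666 CPM in the Col15a1 fibroblast-like cells. Over the 5 clusters of P0 mesenchyme, immediate early genes summed to 3220 to 8432 CPM and Id3 measured 450 to 799 CPM. In P0 epithelium the highest ligand level of a cluster was that of Bmp7 in 19 basal-like cells, 28.7 CPM from 6 UMIs. Sostdc1 had 28 UMIs in 1 of the pair of luminal progenitor-like clusters (94 cells, 31.2 CPM) and 0 in the other (74 cells). It was at least 6.39-fold higher in the former by the exact lower limit, and 8.40-fold higher with 3 counts in place of the 0.

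Ligand and target levels were then set side by side. Summed over Bmp2, Bmp4 and Bmp7, the ligand level was 99.9, 241, 71.4 and 5.35 CPM in epithelium and 144, 115, 140 and 118 CPM in mesenchyme. The 3 Id genes summed to 1034, 1002, 662 and 153 CPM in epithelium and to 646, 595, 405 and 704 CPM in mesenchyme. P0 epithelium was thus lowest in both, and P0 mesenchyme had the highest Id sum of the mesenchymal groups at a ligand sum within the range of the others. Of the 1766 Id UMIs of P0 mesenchyme, 1499 were of Id3, while Id1 and Id2 had their lowest mesenchymal levels there. Over the 15 epithelial clusters Spearman's rho between the ligand and Id sums was 0.81 and that between the ligand and Msx sums 0.71. Over the 13 mesenchymal clusters the values were -0.32 and 0.38. Taken gene by gene, the ligand sum there gave 0.29 with Id1, 0.33 with Id2 and -0.34 with Id3. The receptor Bmpr1a gave 0.88 with the Id sum and 0.64 with the Msx sum over the epithelial clusters. Over the mesenchymal clusters it gave -0.74 and 0.66, and -0.88 with Id3. These coefficients are descriptions, since clusters of 1 stage share a library and its depth. Within the targets, Id1 and Id2 went together over the 15 epithelial clusters (0.86) and the 13 mesenchymal clusters (0.75), while Id1 and Id3 gave 0.48 and -0.21 (the latter 0.07 over 14 clusters when 1 more gene was used for clustering), and Id3 and Msx2 gave 0.23 and -0.75. Over the 8 groups of stage and tissue, Sostdc1 gave 0.90 with Id1, 0.95 with Id2 and 0.19 with Id3, but over the epithelial clusters 0.27, 0.47 and 0.58 and over the mesenchymal clusters 0.77, 0.89 and -0.55, and the ligand sum gave 0.26 with the Id sum.

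**Figure D4:**
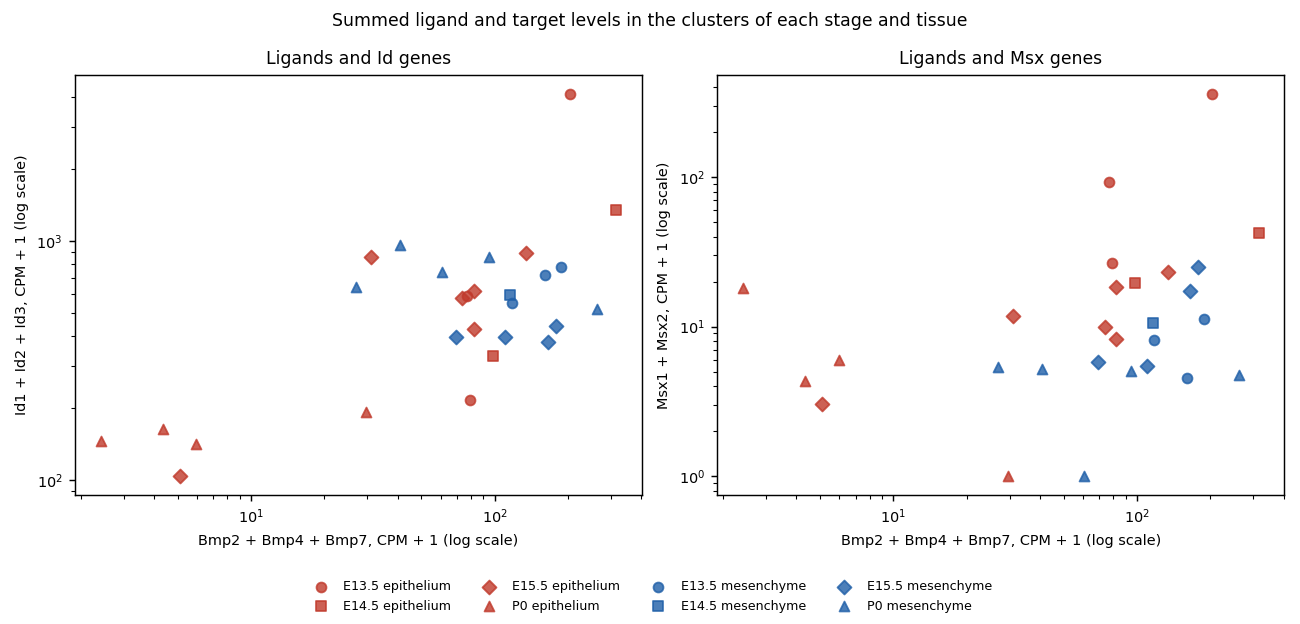
Summed level of Id1, Id2 and Id3 (left) and of Msx1 and Msx2 (right) against the summed level of Bmp2, Bmp4 and Bmp7, in CPM plus 1 on log scales, for 15 epithelial (red) and 13 mesenchymal (blue) clusters, with a symbol for each stage. The mammary-like cells of E13.5 have the highest target sums (4136 and 361 CPM) at a ligand sum of 202 CPM, and the P0 epithelial clusters lie at the lower left of the Id panel.

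Cells with a UMI of a chosen ligand were also compared with the other cells of the same group, after thinning each cell to 5000 UMIs. The ligand was Bmp4 in mesenchyme and Bmp2 or Bmp7 in epithelium, so the other cells can hold UMIs of ligands not chosen. After thinning, 47 cells of P0 mesenchyme had a Bmp2 UMI and 34 a Bmp7 UMI, against 21 with a Bmp4 UMI. In mesenchyme with a Bmp4 UMI, the 5 targets summed to 831 CPM at E13.5 (26 cells) against 626 CPM in the 109 others, a ratio of 1.33 (1.06 to 1.65). At E15.5 the sums were 576 CPM (42 cells) and 433 CPM (241 cells), again 1.33 (1.08 to 1.62). At P0 they were 552 CPM (21 cells) and 759 CPM (252 cells), a ratio of 0.728 (0.549 to 0.949), the reverse of the embryonic order. With at least 2 Bmp4 UMIs before thinning as the criterion, the ratios were 1.60, 1.19 and 0.950. The latter pair had intervals that include 1 (0.975 to 1.43 and 0.691 to 1.28). The P0 sum rested on Id3, with 47 of the 58 UMIs and a ratio of 0.702 (0.512 to 0.943), while Id1 had 1 UMI. Id2 gave 1.17 (0.543 to 2.23) at P0, and 2.16 (1.04 to 4.02) with at least 2 Bmp4 UMIs. At E15.5 Id1, Id2 and Id3 gave 1.74, 0.891 and 1.66 after thinning, and at E13.5 they gave 1.33, 1.62 and 1.15. E14.5 mesenchyme had fewer than 5 such cells and was not compared. Neither was P0 epithelium, where 2 thinned cells had a Bmp2 UMI and 2 a Bmp7 UMI. In epithelium with a Bmp2 or Bmp7 UMI, the ratios were 1.40 at E13.5 (1.19 to 1.65), 1.31 at E14.5 (1.01 to 1.71) and 1.17 at E15.5 (1.04 to 1.31). With at least 2 UMIs before thinning they were 2.14 (1.82 to 2.51), 0.667 (0.509 to 0.881) and 1.18 (1.07 to 1.29), so that the order at E14.5 turned with the criterion. Id3 had the most thinned UMIs of the 5 targets in each group compared. Id1 alone did not follow the sum in epithelium at E13.5 and E15.5, with ratios of 0.923 (0.629 to 1.33) and 0.752 (0.472 to 1.15). With at least 2 UMIs these were 1.17 (0.840 to 1.64) and 0.552 (0.376 to 0.793). At E14.5 Id1 was near the sum, at 1.32 (0.675 to 2.66) and, with at least 2 UMIs, 0.637 (0.321 to 1.34). Cells with and without a ligand UMI come from different clusters, such as the mammary-like cells that hold 78.0% of the Bmp2 UMIs of E13.5 epithelium, and cluster and ligand cannot be told apart in these ratios.

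The other genes of the pathway were read from a list of 42. At E13.5 25 passed the level, with 1 at least 2-fold higher in epithelium and 7 in mesenchyme. At E14.5 23 passed, with 4 and 5, at E15.5 24 passed, with 2 and 7, and at P0 22 passed, with 0 and 10. The shares of all genes in these comparisons are those given for the members. The median log2 difference of the list was -0.05, 0.09, -0.33 and -0.51 in stage order, against -0.09, 0.00, -0.03 and 0.24 for all genes. Of the 18 genes of this list that passed the level at all 4 stages, 3 were at least 2-fold higher in mesenchyme at each (4.39% of 6475 genes were), the ligand Gdf10, the antagonist Nbl1 and the pseudoreceptor Bambi, a receptor without a kinase domain. Gdf10 had 0 to 0.980 CPM in epithelium and 21.9 to 95.7 CPM in mesenchyme. Bambi was at 19.6, 33.8, 26.9 and 4.59 CPM in epithelium and 68.5, 119, 75.2 and 31.1 CPM in mesenchyme, 6.78-fold (3.67 to 13.7) higher in mesenchyme at P0. Nbl1 was at 17.1, 8.64, 17.6 and 10.7 CPM in epithelium and 130, 75.2, 48.2 and 86.9 CPM in mesenchyme.

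The antagonists Fst and Twsg1 went the other way in the embryo. Fst, which binds activins and some BMPs, measured 129, 527, 1248 and 478 CPM in epithelium and 15, 141, 86.8 and 282 CPM in mesenchyme, 14.4-fold (13.3 to 15.6) higher in epithelium at E15.5. Twsg1, which modulates chordin and BMP, was 3.17-fold (2.36 to 4.32) and 3.35-fold (3.04 to 3.69) higher in epithelium at E14.5 and E15.5. The inhibitory Smad7 stood out in P0 mesenchyme, at 295 CPM against 58.5 in epithelium, 5.05-fold (4.24 to 6.05) higher, the group in which Id3 had its highest level, and was 2.46-fold (1.63 to 3.81) higher in epithelium at E14.5. Bmpr2, the type II receptor, ranged from 65.4 to 143 CPM over the 8 groups and Smad4 from 60.2 to 148 CPM. Acvr1, another type I receptor, was 4.79-fold (2.96 to 8.14) higher in mesenchyme at E13.5 and 2.10-fold (1.61 to 2.75) higher in epithelium at P0. Id4 was 3.84-fold (3.38 to 4.37) and Tbx3 3.32-fold (2.97 to 3.71) higher in mesenchyme at E15.5. Of the remaining genes named by the rule, Bmp3 reached 46.3 CPM in P0 mesenchyme, Rgmb 88.3 and Neo1 63.5 CPM in embryonic mesenchyme, Smurf1 38.6 CPM in P0 epithelium and Smurf2 88.0 CPM in E14.5 epithelium.

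**Figure D5:**
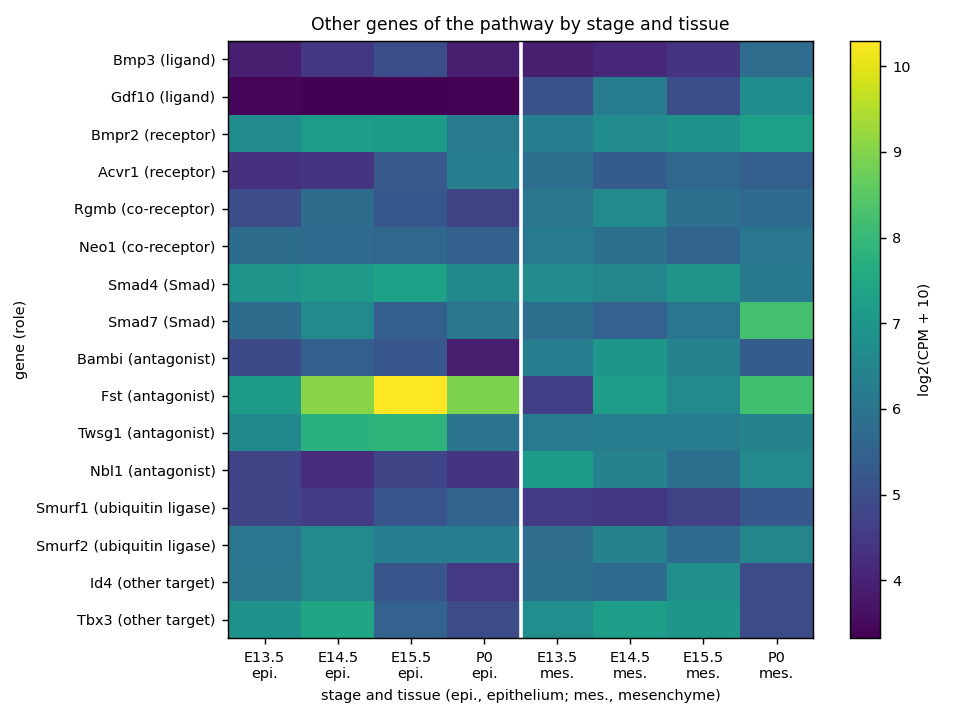
Levels of 16 other genes of the BMP pathway (rows, with their role) on the log2(CPM + 10) scale (colour) in the 4 epithelial (left) and 4 mesenchymal (right) groups. Gdf10, Nbl1 and Bambi are lower in epithelium at every stage, and Fst is highest in E15.5 epithelium (1248 CPM).

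Genes with the most similar pattern were sought by Pearson's r of log2(CPM + 10) over the 8 groups, among 5221 genes with at least 50 CPM in some group. The closest were Washc2 to Bmp2 (0.956), Igfbp4 to Bmp4 (0.924), Ep400 to Bmp7 (0.912), Tbc1d23 to Bmpr1a (0.972), Dctpp1 to Sostdc1 (0.986), Rfxap to Id1 (0.974), Arl3 to Id2 (0.971), Mxi1 to Id3 (0.963) and Etv5 to Msx2 (0.896). The next pair were Mmp16 and Phf21a for Bmp2, Trpm7 and Pds5b for Bmp4, Zfp36l1 and Fjx1 for Bmp7, Atrnl1 and Hnrnpul1 for Bmpr1a, Polr2e and Angel2 for Sostdc1, Polr2f and Siva1 for Id1, Spats2 and Lztfl1 for Id2, Slc16a1 and Ablim1 for Id3, and Rbm33 and Gm16136 for Msx2, with r from 0.844 to 0.976. Msx1 stayed under 50 CPM in every group and was not matched. No member was among the 3 closest genes of another member.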

How the data were processed

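Single-cell libraries from pooled, sorted mammary rudiments were made with the 10x Genomics Chromium 3′ chemistry. The authors aligned the reads to mm10 and counted UMIs per gene and barcode with Cell Ranger (6.0.0 in the labels, an earlier release in the file header of the E15.5 library), and the deposited matrices hold raw UMI counts. Cells and tissues were chosen as stated in the report, and 10 CPM were added to both sides of folds for the 2-fold counts. The members and the gene lists were chosen with earlier results of these data known.

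Clusters were made for each stage and tissue with Seurat 5.3.0 (SCTransform, resolution 0.8) in R 4.3.3, and named -like from at least 3 fixed markers. Intervals are exact Poisson, binomial and conditional binomial limits at 95% (SciPy 1.17.1). Their code was run on simulated Poisson counts, which hold no variation between cells and so cannot show coverage under it. Doublets were kept in the main values. Scrublet (scanpy 1.11.5) called 1, 7, 6 and 3 cells in stage order. UMIs are counted per 3′ end, so a difference in level between genes need not be one in RNA amount. Genes were ranked by level only to choose pathway genes and to name the highest of a group. Sums over genes weigh each gene by its UMIs. Depth was 838030 to 14293755 UMIs per group. Named genes were the 10 members, for each role in the pathway list the 2 with the highest level and any past 2-fold the same way in all 4 stages, the closest genes in pattern, and the leading genes of clusters. Protein sequences were not used here, and 1 gene of the pathway list is not reported here. Gene positions are those of GRCm38 (GENCODE).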

Additional observations from a re-analysis of the deposited data

Results flagged for a closer look

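Of the 10 members, 8 were higher in epithelium at 1 or more stages and in mesenchyme at another, each with intervals on opposite sides of 1. With a minimum mean of 10 CPM over the 8 groups, which Msx1 missed, these were 7 of 9 members, against 21.4% of 8558 genes. The widest gap between stages in the log2(CPM + 10) difference of the tissues was 3.94 for Bmp2 (E14.5 against P0), 3.48 for Id3 (E15.5 against P0) and 2.94 for Bmp7 (E13.5 against P0). It was 2.61 for Msx2 (E13.5 against E15.5), 2.55 for Msx1 (E13.5 against P0), 2.35 for Id2 (E14.5 against P0), 2.00 for Sostdc1 (E14.5 against E15.5, the latter of which changed direction after thinning) and 1.60 for Id1 (E13.5 against P0). The difference between stages was not tested, since each stage had 1 library.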

How the results depend on the processing

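No paired analysis was possible because each stage had 1 library, other than that of the tissues within libraries given above. Of 280 tissue ratios under the alternatives, 258 stayed within the interval of the main value, 20 left it and 2 changed direction, both after thinning to 5000 UMIs, where log2 values became 0.01 for Sostdc1 at E15.5 and 0.06 for Id2 at E13.5. Of 280 stage ratios, 258 stayed within and 22 left it, and of 130 ratios of named classes 129 and 1. Class pairs that lost a name under an alternative gave no ratio and are not counted. A resolution of 0.4 and log-normalization gave 28 ratios each, against 37 for each other alternative of clustering. In alternatives chosen after seeing the data, the pathway list, or 1 gene of it, was kept among the genes used for clustering. Over the 4 alternatives of clustering, the rho of ligand and Id sums ranged from 0.80 to 0.85 in epithelium and from -0.45 to -0.10 in mesenchyme. Leaving out doublets, or a tissue rule of 10 times the other sum, left the 8 counts of members past 2-fold within 1.5 times.

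Members at least 2-fold higher in E13.5 epithelium numbered 3, and 5 with a minimum of 3000 UMIs, a mitochondrial maximum of 10%, thinning, the mean of the cells' CPM, scaling without the 50 genes with most UMIs, or 1 CPM added with no minimum level, Id1 and Id3 being the 2 gained in each case. In E14.5 epithelium 2 became 5 with the mitochondrial maximum of 10% or 1 CPM added, and 4 with the mean of the cells' CPM or the other scaling. In E15.5 epithelium 1 became 2 with 1 CPM added. In E15.5 mesenchyme 1 became 2 with thinning or 1 CPM added and 0 with the mean of the cells' CPM. In P0 epithelium 0 became 2 with 1 CPM added. The causes were not tested beyond what each setting changes by its construction.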

Other observations

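Several clusters without a name held member RNA. In E13.5 mesenchyme the 73 cells led by Actc1, Ebf2, Itm2a, Myog and Cthrc1 had Bmp2 at 52.3 CPM, Bmp4 at 46.8 CPM and Id2 at 204 CPM. Leading genes rest on summed UMIs, and Myog had a UMI in only 1.48% of E13.5 mesenchymal cells. In E15.5 mesenchyme the 57 cells led by Dqx1, Gal, Tac1, Cthrc1 and Epcam had Bmpr1a at 183 CPM and Bmp2 at 21.7 CPM. In P0 mesenchyme the 57 cells led by hemoglobin genes had Id3 at 540 CPM, Bmp4 at 4.34 CPM and Bmp7 at 0, and the 28 cells led by Thbs4, Acta1 and Myl1 had Bmp4 at 44.7 CPM, Id3 at 703 CPM and Bmp7 at 0.

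In P0 epithelium the 43 hormone-sensing-like cells had Msx2 at 17.1 CPM and Id1 at 28.5 CPM, against 3.35 and 12.3 CPM in the 94 and 3.72 and 12.4 CPM in the 74 luminal progenitor-like cells. These levels rest on few UMIs. P0 epithelium held 18 of Msx2 and 43 of Id1 in all. The luminal progenitor-like clusters held 3 and 3 of Msx2 and 11 and 10 of Id1.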
